A study of Mus musculus with 97 samples.

Results

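The 7 genes described here encode the cytosolic sensors of RNA and of Z-form nucleic acid, with the adaptor and the ubiquitin ligase that serve them: Ddx58 (listed as Rigi), Ifih1, Dhx58, Zbp1, Mavs, Eif2ak2 and Trim25. They were listed by name, with earlier results of these data known, and are 7 of the 20457 genes in the table. All 7 reached 1 TPM in all 97 libraries and were among the 17083 genes tested. Their Ensembl identifiers are, in that order, ENSMUSG00000040296, ENSMUSG00000026896, ENSMUSG00000017830, ENSMUSG00000027514, ENSMUSG00000037523, ENSMUSG00000024079 and ENSMUSG00000000275. TPM (transcripts per 1000000) is a level already scaled for gene length and library total, so levels of different genes can be compared but the sequencing depth cannot be recovered.

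The libraries were made from whole colon of wild-type C57BL6/J mice aged 8 to 12 weeks, kept specific pathogen free. Each mouse received ampicillin, metronidazole, neomycin, vancomycin, a mix of these antibiotics, or phosphate-buffered saline (PBS) as the control. The dose was 2.5 mg of antibiotic in 100 µl of PBS, and how the mix was divided among its drugs is not given in the sources used here. Every treatment was given by oral gavage (PO), by intraperitoneal (IP) or by intravenous (IV) injection, 2 times a day for 3 days and once on day 4, and tissue was taken 4 h after the last dose. The 18 groups of antibiotic and route, PBS included, held 6 libraries each, except 4 in PBS-IP, Vancomycin-IP and metronidazole by either injection and 5 in Neomycin-IV, PBS-IV and Vancomycin-IV. The labels do not say that each library is a different mouse, so p-values measure only the spread between these libraries, which may be technical.

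RIG-I, the product of Rigi, and MDA5, the product of Ifih1, are helicases that bind foreign or mislocalised RNA in the cytosol, RIG-I preferring short RNA with a 5′ triphosphate and MDA5 long double-stranded RNA. Both pass the signal to MAVS on the mitochondrial surface, which leads through TBK1, IRF3 and IRF7 to type I and type III interferon. LGP2, the product of Dhx58, is the third RIG-I-like receptor, lacks the signalling domain of the other receptors and modulates them. TRIM25 is a ubiquitin ligase known for its part in RIG-I activation, PKR (Eif2ak2) is a kinase that halts translation when it binds double-stranded RNA, and ZBP1 binds Z-form RNA and DNA and can start necroptosis. Genes for most of these proteins are themselves induced by interferon, and MAVS is the member usually regarded as steadily expressed. In the gut, both epithelial and immune cells carry these sensors.

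The start-site regions of members for which RefSeq (GRCm38.p6) gave a promoter window are shown because interferon-stimulated genes carry a recognised element there. Of the 7 members, 5 had a window of 300 bases, from 250 before to 50 after the start. The letters GAAANNGAAA, the core of the interferon-stimulated response element, were searched on both strands, allowing overlaps. They were found in 3 members' windows, and in 1131 of 32851 windows over all genes (3.44%). Capitals mark the match, and the Mavs and Trim25 windows held none. All are written on the gene's own strand.
Rigi, chr4:40239811-40239895, minus strand: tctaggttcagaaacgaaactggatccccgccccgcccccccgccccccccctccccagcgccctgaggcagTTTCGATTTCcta
Ifih1, chr2:62646211-62646240, minus strand: gtctggagaagagaatcGAAACAGAAAccg
Eif2ak2, chr17:78882543-78882632, minus strand: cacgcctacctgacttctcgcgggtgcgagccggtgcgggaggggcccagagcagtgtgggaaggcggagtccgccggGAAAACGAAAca
Mavs, chr2:131234003-131234062, plus strand: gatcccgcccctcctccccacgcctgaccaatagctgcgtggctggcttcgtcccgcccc
Trim25, chr11:88999343-88999402, plus strand: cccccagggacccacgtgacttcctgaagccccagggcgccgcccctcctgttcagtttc
In Rigi the match lay on the opposite strand. A match describes letters in the window, not a site in use.

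The tissue was colon by its markers: Car1, Krt20, Muc2 and Zg16 had medians of 865, 745, 1944 and 1573 TPM, whereas the 5 small-intestinal genes with values had medians of 0.243 (Lct), 0.319 (Sis), 0.115 (Apoa4), 3.15 (Fabp6) and 81.3 TPM (Apob). Single libraries reached 4.53 TPM of Lct, 97.2 of Sis, 61.9 of Apoa4, 106.8 of Fabp6 and 1069 of Apob, and the summed level of these genes had its highest group median in Mix-PO (365 TPM) and its highest library in Ampicillin-IP (1151 TPM). The amount of epithelium and muscle differed between libraries. The summed level of 7 epithelial markers was 714 TPM in PBS-IV replicate 4, against 6726 to 12436 TPM in the other PBS-IV libraries, and that library also had 25.7% of its TPM from the mitochondrial genome, against 9.93% to 12.3%. Neomycin-IP replicate 5 had 4293 TPM of epithelial markers against 9273 to 13061 TPM in the other libraries of its group. PBS-IP replicate 3 had 25.1% of its TPM from the mitochondrial genome, against 7.77% to 10.9% in the other PBS-IP libraries. Its distal Hox score was 1.36, against 5.01 to 5.26. In Vancomycin-IP the 4 libraries had 1722 to 5689 TPM, against 7581 to 11636 TPM in PBS-IP. Where leaving out PBS-IV replicate 4 or Neomycin-IP replicate 5 changed the call of a named gene, this is stated with the result, and for Vancomycin-IP, low in all its libraries, fits with covariates are given. In whole tissue, fewer cells of a type and less RNA per cell cannot be told apart.

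**Figure D1:**
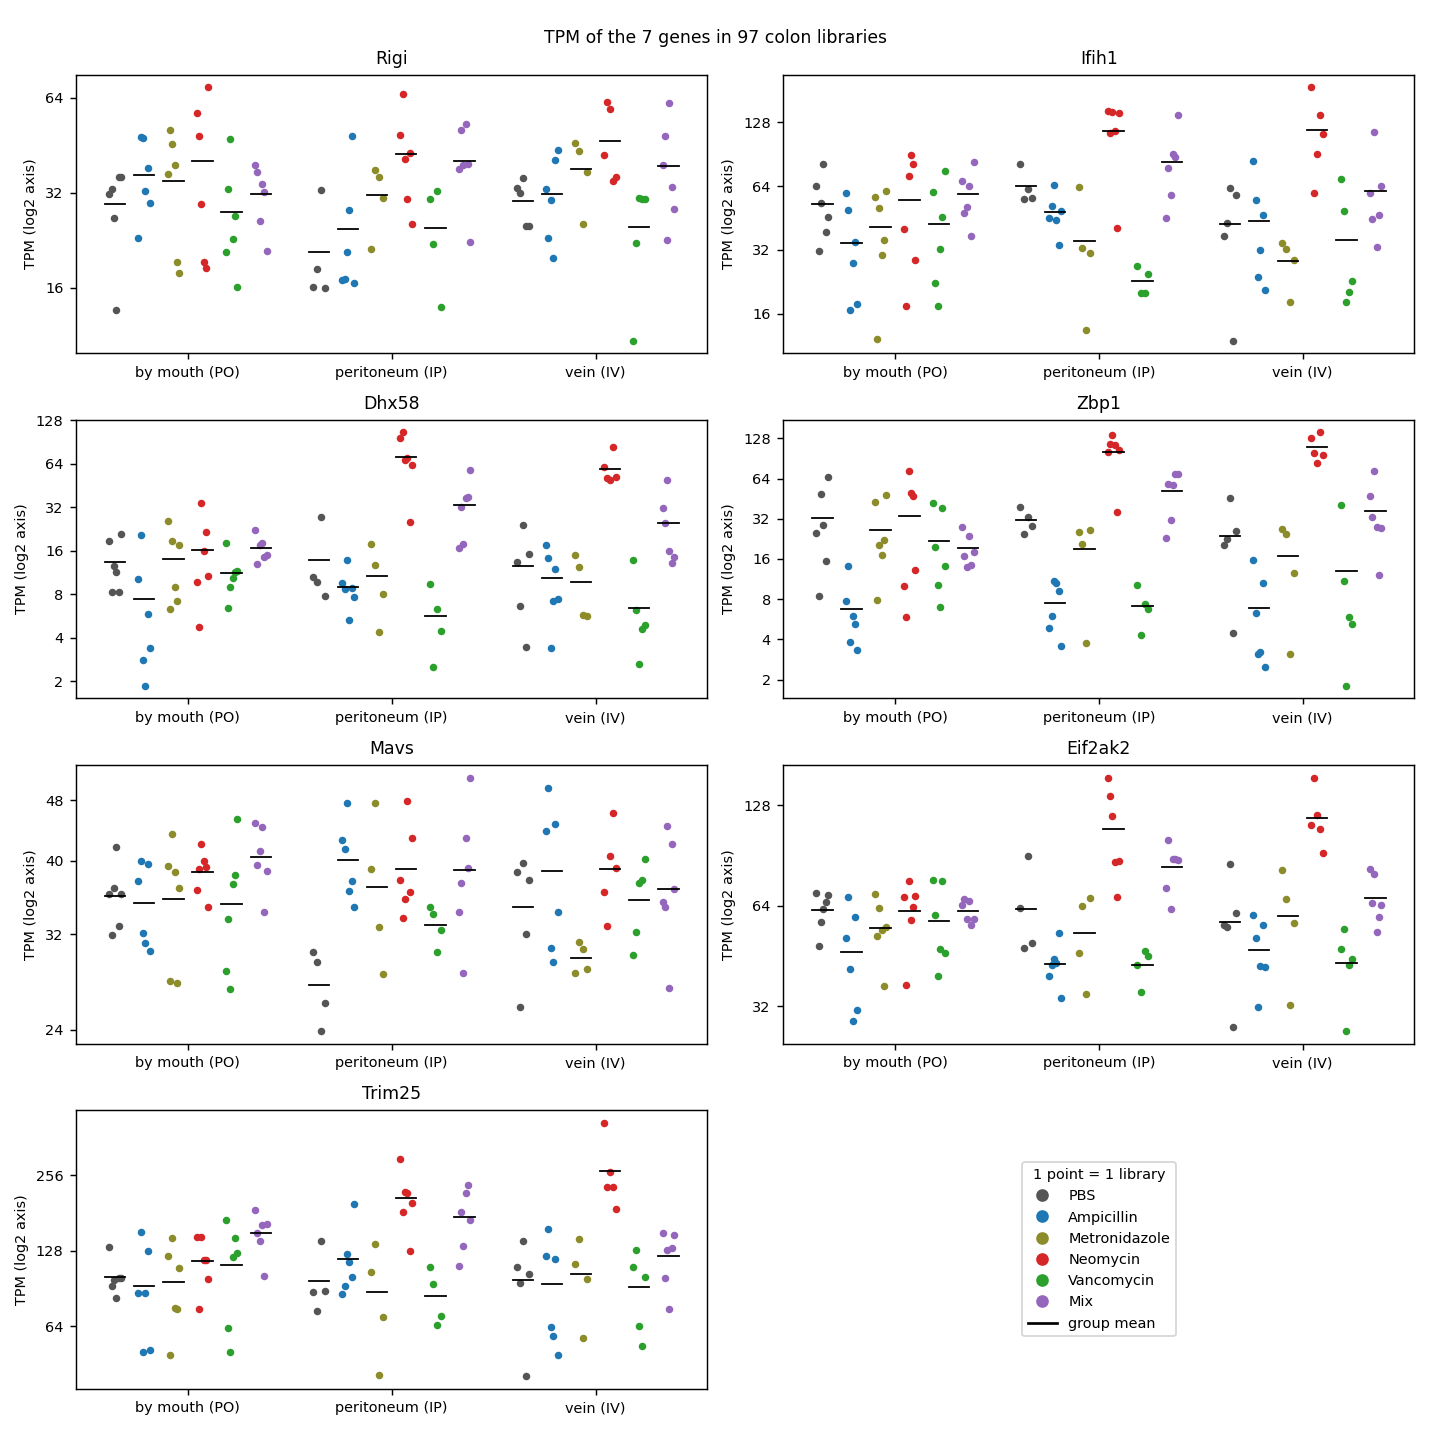
TPM (log2 axis) of the 7 genes in each of the 97 libraries, 1 point per library, grouped by route along the x axis and coloured by treatment, with the group mean as a black bar. Dhx58 and Zbp1 were highest in Neomycin-IP and Neomycin-IV, where Zbp1 averaged 101.4 and 110 TPM, and Zbp1 was low in ampicillin at all 3 routes.

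Across the 97 libraries the members differed widely in how far they ranged. Zbp1 spanned 1.80 to 142 TPM, a 79.0-fold range, and Dhx58 1.86 to 105 TPM, a 56.5-fold range. Mavs stayed between 23.9 and 51.4 TPM, a 2.15-fold range. Between these lay Ifih1 (11.9 to 188 TPM), Trim25 (40.4 to 416 TPM), Rigi (10.9 to 69.0 TPM) and Eif2ak2 (27.0 to 155 TPM). Trim25 had the highest median of the 7, 116 TPM, and Dhx58 the lowest, 12.9 TPM.

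Ordered by mean, Neomycin-IP and Neomycin-IV held the first and second places for every member except Mavs. For Dhx58 the means were 71.0 ± 28.2 TPM in Neomycin-IP (SD, n = 6) and 59.2 ± 14.5 TPM in Neomycin-IV (SD, n = 5), and the next group, Mix-IP, was at 33.1 ± 15.2 TPM (SD, n = 6). The step from Neomycin-IV to Mix-IP exceeded the larger SD of the pair, as did the steps from Neomycin-IP to Mix-IP for Zbp1 (101.4 to 51.4 TPM) and from Mix-IP to Mix-IV for Eif2ak2 (83.4 to 67.4 TPM). One step among the low groups of Mavs, below Vancomycin-IP, was also larger than that SD. All other neighbours in these orders lay within the larger SD of the pair, and for Rigi, Ifih1 and Trim25 no step exceeded it.

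The first comparison set each antibiotic against PBS of the same route, which asks what the drug did to the colon beyond the handling. Several of the sensor genes rose after injected neomycin. In Neomycin-IV, Dhx58 rose 5.15-fold, Zbp1 5.36-fold, Trim25 2.80-fold and Eif2ak2 2.13-fold, and in Neomycin-IP Dhx58 rose 4.99-fold. Folds here are on the log2(TPM + 1) scale, which understates changes at low levels. After gavage of the same drug no member passed the test.

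Dhx58, the modulator of the other RIG-I-like receptors, was at 7.83, 9.67, 10.5 and 27.2 TPM in the 4 PBS-IP libraries and between 25.1 and 105 TPM in the 6 Neomycin-IP libraries, with a median of 68.9 TPM. Only the lowest Neomycin-IP library, replicate 5, fell below the highest PBS-IP library. The log2 difference was 2.32 (SE 0.45, limma, Benjamini-Hochberg adjusted p = 0.000967). In the vein, Dhx58 was at 3.47, 6.63, 13.4, 15.1 and 23.9 TPM in PBS-IV and at 49.0, 50.9, 51.3, 60.9 and 83.7 TPM in Neomycin-IV. The groups did not overlap, and the log2 difference was 2.36 (SE 0.44, limma adjusted p = 0.000376). Dhx58 passed in both routes with any single library left out, with an adjusted p of at most 0.0255 for IP and 0.0130 for IV. When only the compared groups entered the fit, neither comparison called any member.

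Zbp1, the sensor of Z-form nucleic acid, was at 4.50, 20.4, 22.6, 25.7 and 45.6 TPM in PBS-IV and at 83.7, 96.7, 99.4, 128 and 142 TPM in Neomycin-IV. These groups did not overlap either, and the log2 difference was 2.42 (SE 0.56, limma adjusted p = 0.0124). In PBS-IP it was at 24.7, 28.4, 32.9 and 39.3 TPM, and Neomycin-IP ranged from 35.7 through a median of 110 to 136 TPM. Again only replicate 5 of Neomycin-IP reached into the PBS range. The log2 difference of 1.58 (SE 0.58) was not called (limma adjusted p = 0.394).

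Eif2ak2, the translation-halting kinase PKR, was at 27.7, 55.1, 56.2, 60.9 and 85.2 TPM in PBS-IV and at 92.0, 109, 112, 119 and 155 TPM in Neomycin-IV. Trim25, the ligase for RIG-I, was at 40.4, 94.8, 103, 111 and 140 TPM in PBS-IV and at 188, 229, 231, 265 and 416 TPM in Neomycin-IV. Neither gene's groups overlapped in this route. The log2 differences were 1.09 (SE 0.23, limma adjusted p = 0.00197) for Eif2ak2 and 1.49 (SE 0.32, limma adjusted p = 0.00337) for Trim25. In the IP route the ranges overlapped, and the log2 differences of 0.77 for Eif2ak2 and 1.08 for Trim25 were not called (limma adjusted p = 0.13 and 0.132).

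Ifih1, the sensor of long double-stranded RNA, was at 11.9, 37.2, 42.8, 58.3 and 62.9 TPM in PBS-IV and at 59.5, 90.7, 113, 139 and 188 TPM in Neomycin-IV. The lowest Neomycin-IV library lay within the PBS-IV range, and the log2 difference of 1.53 (SE 0.42) missed the threshold (limma adjusted p = 0.0671). In the IP route PBS libraries were at 55.9, 56.5, 61.8 and 81.5 TPM and Neomycin-IP libraries between 40.8 and 145 TPM, with a median of 129 TPM. All but replicate 5 were above the highest PBS-IP library, and the log2 difference was 0.77 (SE 0.43, limma adjusted p = 0.978).

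Rigi, whose product starts the same pathway, was at 15.95, 16.1, 18.4 and 32.6 TPM in PBS-IP and between 25.4 and 65.5 TPM in Neomycin-IP, with a median of 41.7 TPM. The groups overlapped, and the log2 difference of 0.99 (SE 0.32) was not called (limma adjusted p = 0.21). In the IV route the log2 difference was 0.59 (95% interval -0.04 to 1.21). Mavs, the shared adaptor, was at 23.9, 26.0, 29.5 and 30.4 TPM in PBS-IP and between 33.6 and 47.9 TPM in Neomycin-IP, with no overlap. Its log2 difference of 0.49 (SE 0.14) was not called in that route (limma adjusted p = 0.0947), and in the IV route it was 0.17 (95% interval -0.10 to 0.44).

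In all, 4 of the 7 members rose in Neomycin-IV, where 0.544% of all genes tested were higher, and 1 of 7 rose in Neomycin-IP, where 0.574% were higher. No member was lower in either route. At an unadjusted p under 0.05 the counts were 5 and 6 of 7, and 7.24% and 5.81% of all genes tested. The median log2 difference of the members was 1.49 in Neomycin-IV and 0.99 in Neomycin-IP, against -0.03 and 0.08 over all genes tested. Without overlap between groups, 4 members were higher in Neomycin-IV (1.29% of all genes) and 1, Mavs, in Neomycin-IP (1.77% of all genes).

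The IV count rested in part on 1 control library. Without PBS-IV replicate 4, the library poor in epithelial markers, only Dhx58 passed, with a log2 difference of 2.02. Zbp1 was then at 1.95 (limma adjusted p = 0.232), Eif2ak2 at 0.86 (0.0871) and Trim25 at 1.20 (0.102). When the mean level of the 7 epithelial markers entered the fit as a covariate, chosen after seeing the data, 5 members were higher in each injected route. These were Dhx58, Zbp1, Eif2ak2 and Trim25 in both, with Mavs in IP and Ifih1 in IV. The share of all genes called was not recorded for this fit or with a library left out. These counts therefore cannot be set against such a share. With that covariate the log2 difference of Dhx58 was 2.30 in IP and 1.80 in IV. In the IP route, leaving out either Neomycin-IP replicate 5 or PBS-IP replicate 3 brought in Eif2ak2 beside Dhx58, for 2 of 7.

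With both injected routes pooled, a contrast added after seeing the data, 6 of 7 members rose against injected PBS, where 1.84% of all genes did. The log2 differences were 2.34 for Dhx58 (SE 0.32, limma adjusted p = 5.31e-08), 1.9999 for Zbp1, 1.28 for Trim25, 1.15 for Ifih1, 0.93 for Eif2ak2 and 0.79 for Rigi (SE 0.22, limma adjusted p = 0.0393). Mavs, the adaptor, was at 0.33 and missed the threshold (limma adjusted p = 0.055). Without PBS-IV replicate 4, Rigi and Ifih1 were not called and 4 of 7 remained, as also without Neomycin-IV replicate 1, and without Neomycin-IP replicate 5 all 7 passed. The same 6 passed with the epithelium covariate, again with no share of all genes recorded for that fit or with a library left out. Over all 3 routes, oral included, 5 of 7 rose, all of these but Ifih1 (2.08% of all genes), with Rigi lost without PBS-IV replicate 4 and Ifih1 gained without Neomycin-IP replicate 5.

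In Neomycin-PO, 0 of 7 members were called, against 0.0176% of all genes, and 0 had an unadjusted p under 0.05 (5.35% of all genes). Dhx58 ranged from 4.77 through a median of 13.3 to 34.4 TPM, against 8.26 through 12.0 to 21.0 TPM in PBS-PO, and Zbp1 from 5.91 through 30.3 to 73.3 TPM, against 8.45 through 27.1 to 65.8 TPM. The groups overlapped widely for both genes. The 95% interval of the log2 difference was -0.70 to 0.91 for Dhx58 and -1.20 to 0.85 for Zbp1.

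Whether neomycin acted differently by route was tested as the difference between its effects. Neither IP minus PO (0 of 7 members, 0.0644% of all genes) nor IV minus PO (0 of 7, 0.0585%) called a member in limma, and 5 of 7 had an unadjusted p under 0.05 in each, against 1.73% and 5.44% of all genes. The largest in IP minus PO was that of Dhx58, a log2 difference of 2.21 (SE 0.60, limma adjusted p = 0.306). With both injected routes pooled, a contrast chosen after seeing the data, Dhx58 passed with a difference of 2.24 (SE 0.51, limma adjusted p = 0.0259), as 1 of 7 members, where 0.152% of all genes were higher. Leaving out any of 9 single libraries ended that call: replicates 1, 2 and 6 of Neomycin-PO, 1 and 6 of PBS-PO, 2 and 4 of PBS-IP, or 2 and 4 of PBS-IV. In the same contrast the median log2 difference was 1.19 for the 7 epithelial markers and -3.35 for the 6 B cell markers, with 0 called in either list. With the epithelium score as a covariate the difference of Dhx58 was 1.63 (limma adjusted p = 0.0382), and the part of B cells in it was not tested.

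**Figure D2:**
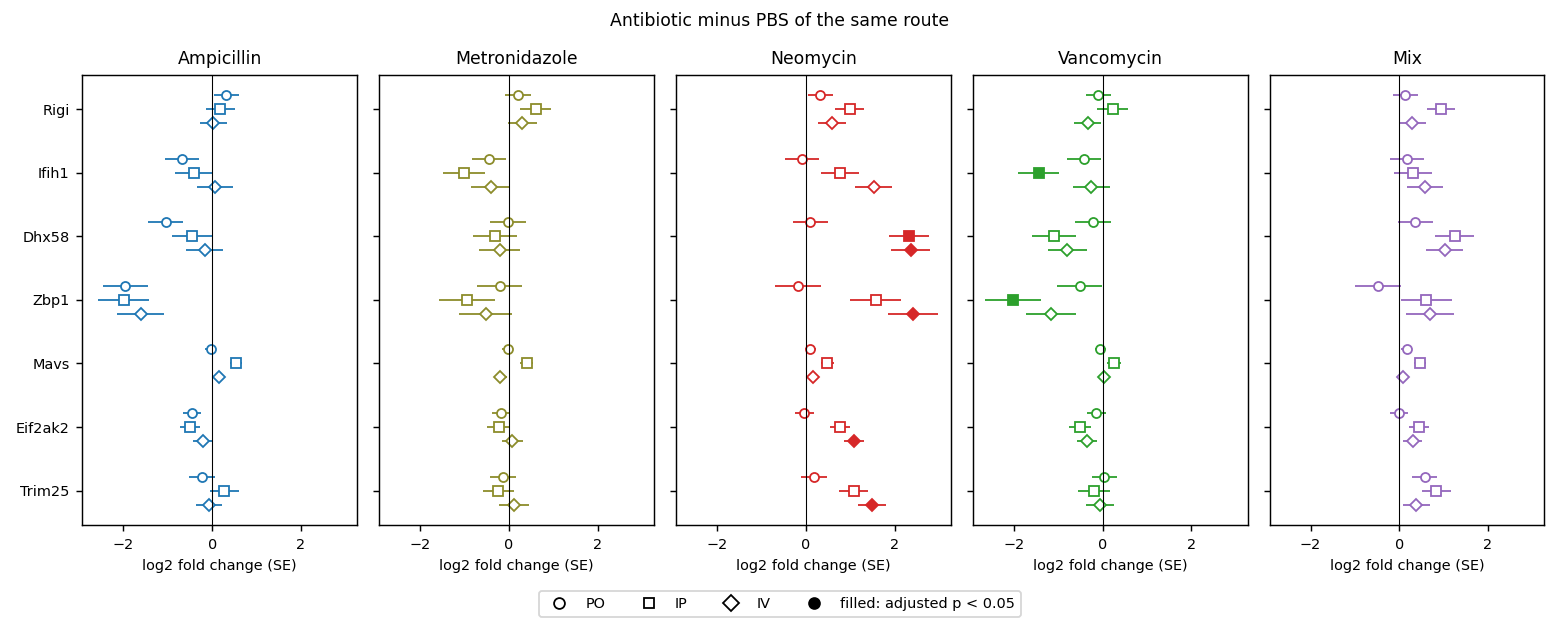
Log2 fold change of each gene against PBS of the same route, 1 panel per antibiotic, with its SE as a horizontal bar. Circles are PO, squares IP and diamonds IV, and filled symbols passed an adjusted p of 0.05: Dhx58 in Neomycin-IP, Dhx58, Zbp1, Eif2ak2 and Trim25 in Neomycin-IV, and Ifih1 and Zbp1, which were lower, in Vancomycin-IP.

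Neomycin was also set against the other 3 single antibiotics of the same route, a comparison that uses no PBS library. In each injected route 5 of 7 members were higher: Ifih1, Dhx58, Zbp1, Eif2ak2 and Trim25, where 1.08% of all genes were higher in IP and 0.901% in IV. For Zbp1 the log2 difference was 3.23 (SE 0.44, limma adjusted p = 4.41e-08) in IP and 3.53 (SE 0.46, 2.68e-08) in IV. Dhx58 followed at 2.94 in IP and 2.75 in IV, and Ifih1 was at 1.73 and 1.74. Rigi, at 0.65 and 0.59, was not called (limma adjusted p = 0.232 and 0.253), nor was Mavs, at 0.09 and 0.18. The count stayed at 5 with any single library left out. Some members were themselves low in the comparator groups. In IP, Zbp1 averaged 7.52, 19.1 and 7.16 TPM in ampicillin, metronidazole and vancomycin, against 31.3 TPM in PBS-IP. Ifih1 averaged 48.1, 35.2 and 22.8 TPM there, against 63.9 TPM. Trim25 in Ampicillin-IP, at 119 TPM, was instead above the 97.3 TPM of PBS-IP. The differences from these antibiotics are therefore not a measure of a rise over PBS. The epithelial markers had median log2 differences of 1.00 in IP and 1.16 in IV here, and the smooth muscle markers of -1.06 and -1.01, with 0 called in either list. With the epithelium score as a covariate Ifih1 was at 1.12 and 0.99, Dhx58 at 2.43 and 2.12 and Zbp1 at 2.53 and 2.66, all still called. By mouth 0 of 7 members were called (0.0117% of all genes), with 0 at an unadjusted p under 0.05 (3.56% of all genes).

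The mix contains neomycin, so its groups were read beside those of neomycin. Against PBS, 0 of 7 members were called in Mix-PO (0.252% of all genes), Mix-IP (0.275%) and Mix-IV (0%), and 0, 4 and 1 of 7 had an unadjusted p under 0.05, against 10.9%, 14.6% and 5.6% of all genes. Dhx58 ranged from 16.6 through a median of 34.7 to 57.7 TPM in Mix-IP and from 13.1 through 20.4 to 49.3 TPM in Mix-IV. Both groups overlapped PBS of their route, and the log2 differences were 1.24 (limma adjusted p = 0.173) and 1.02 (0.8). With the injected routes pooled, a contrast added after seeing the data, Dhx58 was the 1 of 7 members higher in the mix than in PBS, by 1.13 (limma adjusted p = 0.0393, 0.907% of all genes higher). That call was lost with each of 12 libraries left out in turn, which were replicates 2, 4, 5 and 6 of Mix-IP, 1, 2 and 3 of Mix-IV, 1, 2 and 4 of PBS-IP, and 2 and 4 of PBS-IV.

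Over all 3 routes of the mix, also added later, 3 of 7 members rose, Dhx58 by 0.87, Trim25 by 0.59 and Mavs by 0.24 on the log2 scale (limma adjusted p = 0.0177, 0.0248 and 0.0363, 4.69% of all genes higher). Trim25 was not called without PBS-IV replicate 4. With group means removed, its r with the distal Hox score was -0.47, and that score averaged 2.08 in Mix-PO against 3.84 in PBS-PO. The part of this difference in the result was not tested beyond the covariate fits.

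Directly compared with the mix, neomycin called 0 of 7 members in the PO (0.0351% of all genes), IP (0.105%) and IV (0.0117%) routes, with 0, 1 and 5 of 7 at an unadjusted p under 0.05, against 12.2%, 12.5% and 12.3% of all genes. The IV log2 differences were 1.35 for Dhx58, 1.73 for Zbp1, 0.79 for Eif2ak2 and 1.10 for Trim25 (limma adjusted p between 0.285 and 0.326). In this comparison the epithelial markers had a median log2 difference of 0.87 and the smooth muscle markers of -1.19, with 0 called in either list, and with the epithelium covariate the values were 0.87 for Dhx58, 1.07 for Zbp1, 0.56 for Eif2ak2 and 0.72 for Trim25. Over both injected routes, again chosen after seeing the data, Dhx58 was 1.21 higher with neomycin than with the mix (SE 0.29, limma adjusted p = 0.0254), as 1 of 7 members where 0.527% of all genes were higher. The call ended without replicate 2 of Neomycin-IP, 4 of Neomycin-IV, 1 or 3 of Mix-IP, or 4 or 5 of Mix-IV, and 3 members passed without replicate 5 of Neomycin-IP, 6 of Mix-IP or 3 of Mix-IV. In Mix-IP against PBS-IP, Rigi and Dhx58 passed without PBS-IP replicate 3.

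The 3 RIG-I-like receptors did not move in step. In these tests, chosen after seeing the data, the difference between 2 receptors on the log2(TPM + 1) scale was computed within each library and compared between neomycin and PBS. Dhx58 gained on Rigi by 1.33 in IP (exact permutation test, two-sided p = 0.0286, adjusted over 6 tests 0.0476) and by 1.78 in IV (exact p = 0.00794, the smallest this design gives, adjusted 0.0286). Dhx58 also gained on Ifih1, by 1.55 in IP (exact p = 0.00952, adjusted 0.0286) and by 0.83 in IV (exact p = 0.0317, adjusted 0.0476). Between Ifih1 and Rigi the balance moved by -0.22 in IP (exact permutation p = 0.7) and by 0.95 in IV (exact permutation p = 0.135), neither past the threshold. Without PBS-IV replicate 4 the IV gains of Dhx58 were 1.498 on Rigi (exact permutation p = 0.00794, adjusted 0.0238) and 0.88 on Ifih1 (exact permutation p = 0.0476, adjusted 0.0714, no longer past the threshold). Without Neomycin-IP replicate 5 the IP gains were 1.61 (exact permutation p = 0.00794, adjusted 0.0238) and 1.54 (exact permutation p = 0.0159, adjusted 0.0317). Rigi and Dhx58 ran in opposite directions with the epithelium score within groups (r = -0.39 and 0.69). With that score as a covariate over all libraries, the IV gain of Dhx58 on Rigi was 0.99 (SE 0.39) and the shift of Ifih1 against Rigi 0.06 (SE 0.43), while the IP gain of Dhx58 on Rigi was 1.30 (SE 0.39). Dhx58 was the least abundant of the 3 in PBS-IP and PBS-IV by mean, and in Neomycin-IP and Neomycin-IV its mean exceeded that of Rigi.

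**Figure D3:**
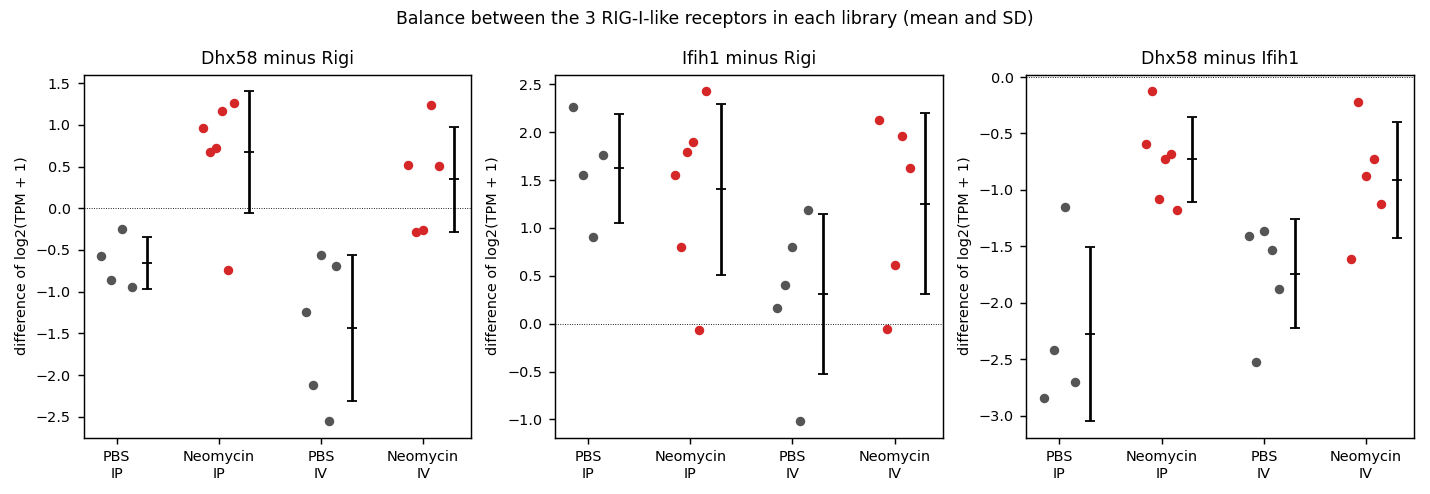
Difference of log2(TPM + 1) between pairs of RIG-I-like receptors in each library (y axis) for PBS and neomycin by IP and IV route, 1 point per library, with mean and SD as black bars. The mean of Dhx58 minus Rigi was -0.66 in PBS-IP and -1.43 in PBS-IV, and 0.67 and 0.34 with neomycin.

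The rest of the pathway was read from lists of other genes, chosen with earlier results of these data known, of which 104 had values. The group that rose most was that of other RNA sensors induced by interferon. Of its 11 genes, 9 rose in Neomycin-IP and 10 in Neomycin-IV, with median log2 differences of 2.18 and 2.31. Over all genes tested, 0.574% were higher in Neomycin-IP and 0.544% in Neomycin-IV, the shares that apply to every list below. Oas2, an oligoadenylate synthase that senses double-stranded RNA, averaged 18.2 TPM in PBS-IP and 170 TPM in Neomycin-IP, and its log2 difference was 3.97 (SE 0.65, limma adjusted p = 3.14e-05). Oas3, of the same family, rose by 3.09 and 3.48 on the log2 scale in IP and IV, Oasl2, an OAS-like protein, by 2.87 and 2.94, and Ifit1, which binds viral RNA ends, by 2.44 and 2.80. Without PBS-IV replicate 4, 6 of these 11 genes passed in IV, and Oas3 was not called (limma adjusted p = 0.147). Oas1a and Oas1g are near-identical copies between which the quantification could split reads, so their values are uncertain.

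The steps that carry the signal from MAVS showed no call. Of 17 genes of RIG-I-like receptor signalling, 0 passed in either injected route, with median log2 differences of 0.20 in IP and 0.11 in IV. Irf7, the interferon-induced transcription factor of the pathway, averaged 225 ± 300 TPM in PBS-IP (SD, n = 4) and 708 ± 288 TPM in Neomycin-IP (SD, n = 6). The SD in PBS-IP was larger than its mean, and the log2 differences of 2.33 and 2.54 in IP and IV were not called (limma adjusted p = 0.214 and 0.125). Tradd, an adaptor of MAVS and of death receptors, was at 0.14 and 0.61, neither called.

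Among 16 regulators of RIG-I, MDA5 and MAVS, 2 rose in each injected route and 0 fell. Ddx60, a helicase reported to assist these receptors, averaged 38.9 TPM in PBS-IP and 183 TPM in Neomycin-IP, a log2 difference of 2.31 (limma adjusted p = 0.027), and rose by 2.81 in IV (0.0013). Zc3hav1, which encodes the antiviral zinc-finger protein ZAP, rose by 0.87 (limma adjusted p = 0.0152) and 1.00 (0.0013). The abundant Ddx3x, an RNA helicase, at 0.04 and 0.25, and Pcbp2, an RNA-binding protein known to promote MAVS degradation, at -0.43 and -0.04, were not called.

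Of 8 genes of the ZBP1 cell-death arm, 1 rose in each injected route: Adar, whose product edits double-stranded RNA and restrains both ZBP1 and MDA5. It averaged 60.8 TPM in PBS-IP and 128 TPM in Neomycin-IP, and rose by 1.16 in IP and 1.14 in IV on the log2 scale (limma adjusted p = 0.00447 and 0.00328), and 0 of 8 passed in IV without PBS-IV replicate 4. Casp8, the caspase that blocks necroptosis, at 0.06 and 0.79, and Gsdmd, the pyroptosis pore protein, at 0.46 and 0.48, were not called. Of 11 genes of the PKR arm, 0 passed in either route. Atf4, the transcription factor translated when eIF2 alpha is phosphorylated, averaged 180 TPM in PBS-IP and 228 TPM in Neomycin-IP and was not called (limma adjusted p = 0.767).

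The DNA-sensing genes held a single call. Of 14 genes for cytosolic DNA sensing and nucleases, 1 rose in Neomycin-IP and 0 in Neomycin-IV. It was Trex1, a nuclease that clears cytosolic DNA, at 0.89 in IP (limma adjusted p = 0.00611) and 0.72 in IV (0.0566). Samhd1, which depletes nucleotides, and Polr3c, a subunit of the RNA polymerase that can transcribe DNA in the cytosol, were not called. Of 6 endosomal receptor genes tested, 0 passed in either route, Myd88 and Unc93b1 included.

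Downstream of the interferon receptors, Stat2, a transcription factor of the type I and type III response, rose by 1.41 on the log2 scale in IP (limma adjusted p = 0.00758). Its DNA-binding partner Irf9 rose by 1.12 in IV (limma adjusted p = 0.0135). Stat2 in IV, at 0.94 (0.258), and Irf9 in IP, at 1.01 (0.0504), missed the threshold. Without PBS-IV replicate 4 Irf9 was not called in IV (limma adjusted p = 0.314), and without Neomycin-IP replicate 5 it was called in IP (0.0255). Of 6 other TRIM genes, 1 rose in each route, Trim56, at 0.79 and 0.83. Of the interferon genes listed, Ifng and Ifnz had values but did not pass the filter on low levels, and the others were not analysed here. In Neomycin-PO no gene of any list was called.

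**Figure D4:**
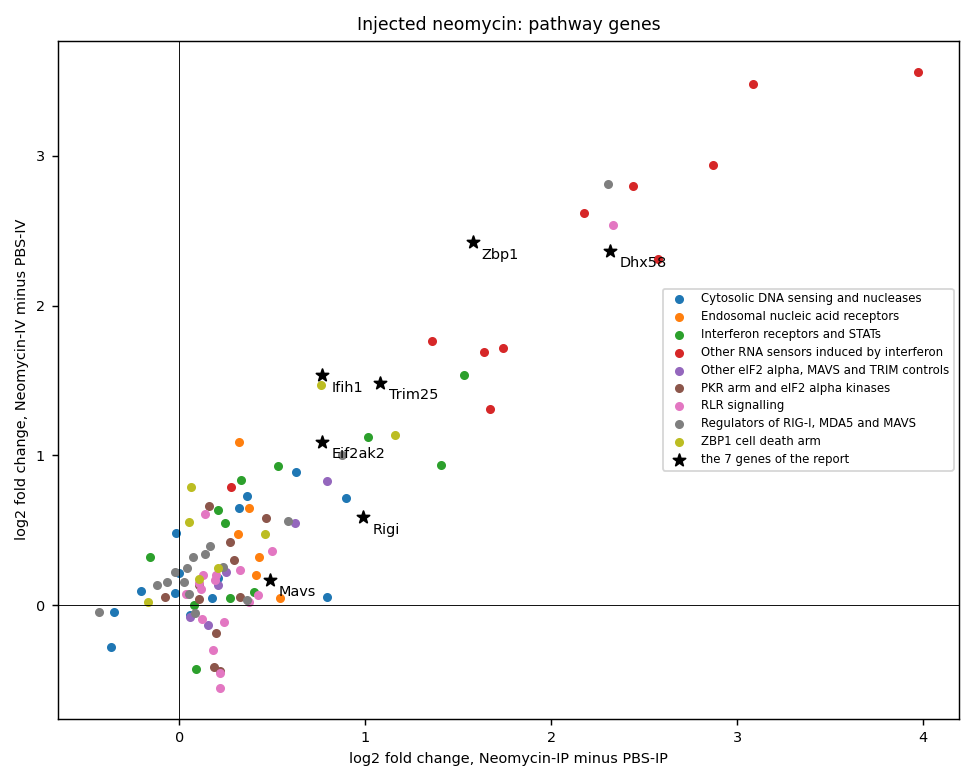
Log2 fold change in Neomycin-IP against PBS-IP (x axis) and in Neomycin-IV against PBS-IV (y axis) for genes of 9 pathway lists, coloured by list, with the 7 genes as stars. Other RNA sensors induced by interferon, in red, reached 3.97 in IP for Oas2, and the signalling genes, in pink, had medians of 0.20 and 0.11.

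Markers of other cells were read beside these results. In Neomycin-IV against PBS-IV, 0 of 7 epithelial markers were called, with a median log2 difference of 1.17 and summed levels of 9585 to 13534 TPM against 714 to 12436 TPM. The 6 B cell markers had a median of -2.23 and summed levels of 5.62 to 341 TPM against 29.0 to 383 TPM, with 0 called. The 13 genes of the mitochondrial genome had medians of -0.998 in IP and -1.004 in IV, with 0 called. With the injected routes pooled, 8 of these 13 were called lower. Their mean share of TPM was 6.43% in Neomycin-IP and 6.85% in Neomycin-IV, against 13.13% in PBS-IP and 13.97% in PBS-IV. With group means removed, r with their mean log2(TPM + 1) was -0.66 for Ifih1, -0.59 for Trim25 and -0.58 for Zbp1. It was -0.57 for Mavs, -0.51 for Dhx58, -0.43 for Eif2ak2 and 0.28 for Rigi. No covariate fit used this level, so its part in the results was not tested. In Neomycin-IP against PBS-IP the median was -0.00 for the epithelial markers and 0.35 for the B cell markers. Markers of plasmacytoid dendritic cells, which make much interferon, summed to 421 to 1362 TPM in Neomycin-IP and 461 to 1660 TPM in PBS-IP, and 0 of 6 were called. Their mean log2(TPM + 1) was only 4.36 and 4.30. The sum therefore mostly follows the most abundant of these markers and does not measure the amount of these cells. No marker of the epithelial, B cell or plasmacytoid lists was at 0 throughout these groups, and their part in the results was not tested beyond the covariate fits.

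Zbp1 was low in the ampicillin groups. In the IP route the 6 ampicillin libraries held 3.54 to 10.9 TPM of Zbp1, with a median of 7.61 TPM, and PBS-IP held 24.7 to 39.3 TPM. These groups did not overlap, which 0.931% of all genes shared in this direction. The log2 difference was -1.99 (SE 0.58, limma adjusted p = 0.0837), and it was -1.955 in PO (0.17) and -1.62 in IV (0.384), so that no single route passed. Over the 3 routes together, a contrast added after seeing the data, the log2 difference of Zbp1 was -1.85 (SE 0.31, limma adjusted p = 3.69e-05).

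Eif2ak2 also fell over the 3 routes of ampicillin, by 0.39 (SE 0.13, limma adjusted p = 0.0356), which made 2 of 7 members lower where 2.75% of all genes were. Of these, only Zbp1 passed when the 12 appended libraries, which stand at the end of the table, were left out, or without any one of replicates 4 or 6 of Ampicillin-PO, 6 of Ampicillin-IP, 3 of Ampicillin-IV, 6 of PBS-PO, 1 or 3 of PBS-IP, and 2, 3 or 5 of PBS-IV. Within single routes 0 of 7 members were called in PO (0.0702% of all genes), IP (0.492%) and IV (0.082%), with 3, 3 and 1 at an unadjusted p under 0.05, against 15.9%, 9.86% and 6.29% of all genes. Zbp1 passed in PO without PBS-PO replicate 2, and Mavs in IP without Ampicillin-IP replicate 6. Mavs in Ampicillin-IP ranged from 34.8 through a median of 39.5 to 47.6 TPM, all above the 23.9 to 30.4 TPM of PBS-IP, and its log2 difference of 0.53 was not called (limma adjusted p = 0.0505). Such separation upward was seen for 2.39% of all genes.

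Epithelial markers were read beside this. Their summed level was 1137 to 10414 TPM in Ampicillin-PO against 3519 to 12885 TPM in PBS-PO, 5688 to 11123 TPM in IP against 7581 to 11636 TPM, and 1362 to 10066 TPM in IV against 714 to 12436 TPM. Over the 3 routes 1 of 7 markers was called lower. With the epithelium score as a covariate, Zbp1 fell by 1.49 over the 3 routes (limma adjusted p = 7.79e-07), by 1.79 in IP (0.00417) and by 1.51 in IV (0.0302). In PO it was then at -1.16 (0.32). With that covariate Eif2ak2 was no longer called over the 3 routes (0.0638) and Mavs was higher by 0.26 (0.00735).

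**Figure D5:**
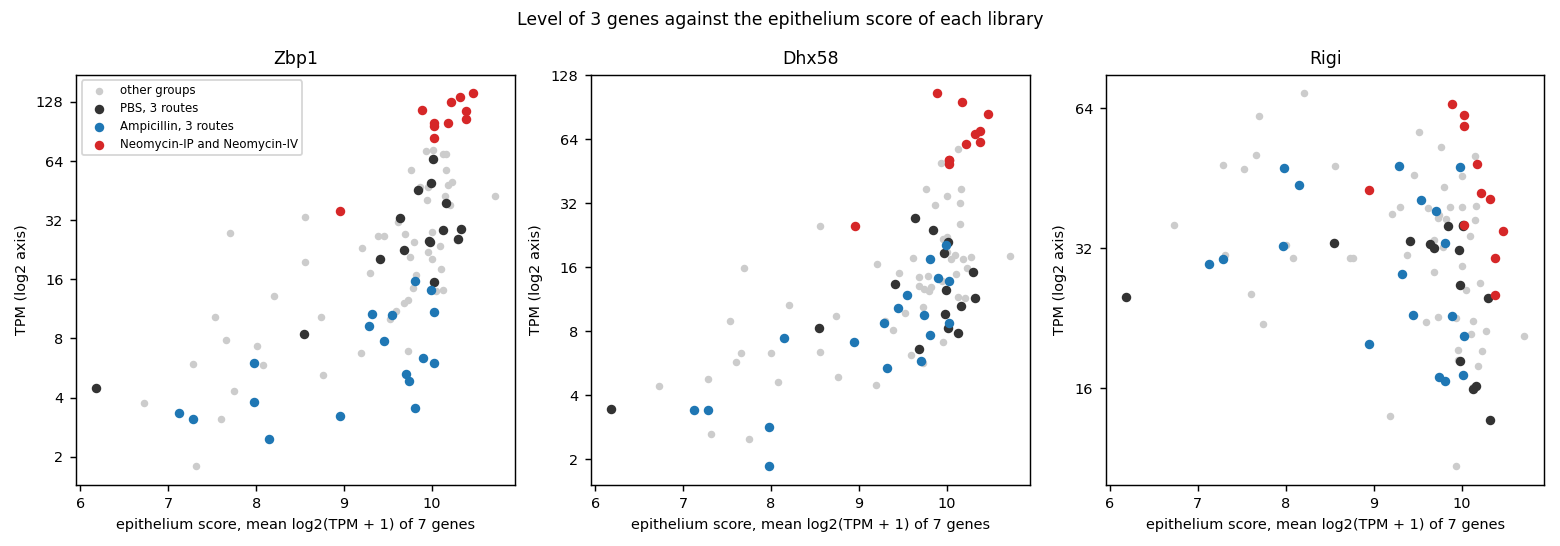
TPM (log2 axis) of Zbp1, Dhx58 and Rigi in each library against its epithelium score, the mean log2(TPM + 1) of 7 epithelial markers. Over 97 libraries r was 0.67 for Zbp1, 0.65 for Dhx58 and -0.22 for Rigi, and the injected neomycin libraries lay above the PBS libraries of like score in the Zbp1 and Dhx58 panels.

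Vancomycin-IP was the other group with calls. Ifih1 was at 20.0, 20.0, 24.7 and 26.7 TPM there and Zbp1 at 4.33, 6.72, 7.35 and 10.3 TPM, both below all 4 PBS-IP libraries. With Eif2ak2 (35.2 to 46.9 TPM against 47.8 to 90.4 TPM), 3 of 7 members lay wholly below PBS-IP, as did 7.72% of all genes. The log2 differences were -1.44 (SE 0.47, limma adjusted p = 0.0284) and -2.01 (SE 0.63, 0.0249), so 2 of 7 members fell where 3.08% of all genes did and 19% changed in either direction. In the same comparison 9 of 10 smooth muscle markers were higher, with summed levels of 42568 to 71069 TPM against 8152 to 15099 TPM in PBS-IP. With muscle and Hox scores, or the epithelium score, as covariates, 0 of 7 were called. Appended libraries made up 3 of the 4 in Vancomycin-IP and 2 of the 4 in PBS-IP. A fit without them kept too few libraries to decide these calls. Leaving out PBS-IP replicate 1 or Vancomycin-IP replicate 1 or 2 ended both calls, and leaving out Vancomycin-IP replicate 3 left only Zbp1. In Vancomycin-PO (0.176% of all genes called) and Vancomycin-IV (0.258%) 0 of 7 passed in limma, with 0 and 1 at an unadjusted p under 0.05 (6.05% and 13.6% of all genes). Over the 3 routes, added after seeing the data, 3 of 7 members fell, Ifih1, Dhx58 and Zbp1, where 7.4% of all genes did. The count was 0 with the muscle and Hox covariates, and without the appended libraries too few Vancomycin-IP libraries remained to decide. It was 1 without Vancomycin-PO replicate 3, Vancomycin-IV replicate 3, or PBS-IV replicate 3 or 5. Eif2ak2 was also called without PBS-IV replicate 4.

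Metronidazole called 0 of 7 members by each route, where 0% of all genes were called, and 0, 2 and 0 had an unadjusted p under 0.05 in PO, IP and IV (3.25%, 7.15% and 1.48% of all genes). The members' log2 differences there ran from -1.02 for Ifih1 to 0.61 for Rigi, both in IP, and over the 3 routes together 0 of 7 passed in limma (0.398% of all genes), with 1 at an unadjusted p under 0.05 (9.48%). Between the 3 PBS groups no member was called (0 of 7 in limma, 0% of all genes), with 1 at an unadjusted p under 0.05 (2.26% of all genes). It was Mavs (limma adjusted p = 0.931), 0.38 lower on the log2 scale in PBS-IP than in PBS-PO, which is also the control group against which Mavs stood higher in Ampicillin-IP and Neomycin-IP.

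Across the 97 libraries, which share their groups and tissue makeup, the members fell into a correlated set and 2 that stood aside. Pearson's r of log2(TPM + 1) was 0.88 between Dhx58 and Zbp1 and between Dhx58 and Eif2ak2, 0.85 between Ifih1 and Dhx58, and 0.83 between Ifih1 and Trim25. Rigi and Ifih1 had r = -0.12, and -0.51 once group means were removed. Mavs reached at most 0.46, with Trim25. Ifih1 followed the epithelium score most closely of the 7 (0.83), and its r with the smooth muscle score was -0.70.

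The genes most like each member, by the highest r over the 97 libraries, differed by member. For Dhx58 they were Rnf213 (0.96), Lgals9 (0.94) and Rtp4 (0.93), for Zbp1 Rtp4 (0.93), Isg15 (0.93) and Oas1a (0.92), and for Eif2ak2 Oas1a, Rtp4 and Slfn4 (each 0.89). Ifih1 was most like Parp9 (0.93), Trim31 (0.93) and Zc3hav1 (0.92), and Trim25 like Oasl1 (0.94), Irf7 (0.91) and Zc3hav1 (0.90). Rigi was most like Tor1aip1 (0.84), Ncor1 (0.83) and Tbk1 (0.82), and Mavs like Cdipt, Pigq and Mgrn1 (0.72, 0.72 and 0.71).

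Reads at 2 members could come from genes on the opposite strand, since strand handling is not given in the sources used here. In the GENCODE M21 annotation, exons of Dhx58 share 141 bases with Dhx58os, and exons of Eif2ak2 share 174 bases with Gm26637.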

How the data were processed

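Total RNA (1000 ng) from whole colon was made into poly(A) libraries and read for 75 single-end cycles, per the labels' protocols. Per the submitters' processing notes, Trim Galore 0.6.2, cutadapt 3.5, Salmon and the GRCm39 build were used. The authors deposited TPM values (transcripts per 1000000, the sum of each library). TPM keeps no depth, so none is given. The table's 97 columns matched the 97 labels by name, and 12 of them stand apart from the others at the end of the table. These were 2 libraries each of PBS-IP, PBS-IV and Vancomycin-IV and 3 each of Vancomycin-PO and Vancomycin-IP. The other groups held none, so injected PBS and the injected antibiotics other than vancomycin differ in this. Why the columns stand apart is not given in the sources used here. Libraries had 18247 to 19884 genes above 0.

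From these values log2(TPM + 1) was fitted with limma 3.58.1 (R 4.3.3; trend and robust moderation) over all 18 groups for the 17083 of 20457 genes with at least 1 TPM in at least 4 libraries. P-values were adjusted by Benjamini-Hochberg within each comparison and called under 0.05. The fit was tested on simulated data with independent noise for each gene and library. That simulation held no differences in tissue makeup and no outlying libraries, so it does not bear on their effect. The 7 genes, the pathway lists and the markers were chosen with earlier results of these data known. The genes named were all members, up to 4 called genes per list with the largest change after injected neomycin, and up to 2 uncalled ones with the highest level. Some genes that this rule names are not reported here. Alternatives were quantile normalization, array weights, a replicate block, a pseudocount of 10, fitting every gene, muscle and Hox covariates, an epithelium covariate, the compared groups alone, and leaving out the 12 columns or each library. Pooled-route contrasts, the epithelium covariate and the receptor pairs were added after seeing the data. Figures were drawn with matplotlib.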

Additional observations from a re-analysis of the deposited data

Results flagged for a closer look

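In 8 of 126 groups of libraries, counting each gene in each group, 1 library lay far from the rest of its group by Dixon's test, where chance marks about 1 in 20. PBS-IP replicate 3 was high in Rigi (32.6 TPM, nearest 18.4) and in Dhx58 (27.2 TPM, nearest 10.5). That library is an appended one, and its mitochondrial share and distal Hox score also stood apart from its group. Neomycin-IP replicate 5, the library of its group with the fewest epithelial marker transcripts, was low in Ifih1 (40.8 TPM, nearest 115) and in Zbp1 (35.7 TPM, nearest 100.4). The others were Rigi in Ampicillin-IP replicate 5 (48.2 TPM), Zbp1 in Vancomycin-IV replicate 1 (40.7 TPM), Trim25 in PBS-PO replicate 1 (132 TPM) and Trim25 in Ampicillin-IP replicate 6 (197 TPM). The neomycin effect on Dhx58 differed between pooled injected and oral routes, by 2.24 on the log2 scale (limma adjusted p = 0.0259), in a contrast chosen after seeing the data. Neither IP minus PO nor IV minus PO alone called it. The pooled call ended with any of 9 single libraries left out, with quantile normalization and in the compared groups alone.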

How the results depend on the processing

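Counts of members called are given against the main value, and the cause of each shift was not tested. The share of all genes called was not recorded for these alternatives or with a library left out. A shift in a count therefore cannot be read as particular to the members. A pseudocount of 10 gave 1 (main 0) for neomycin IP minus PO and for IV minus PO, 2 (0) for Neomycin-IV against Mix-IV and 3 (1) for injected neomycin against injected mix. Quantile normalization gave 3 (5) for neomycin over 3 routes and 0 (1) for injected mix against PBS, injected neomycin against mix and injected minus oral neomycin. Array weights gave 3 (0) in Ampicillin-PO, 2 (0) in Ampicillin-IP, 7 (1) in Neomycin-IP, 4 (0) in Vancomycin-IV, 5 (0) in Mix-IP, 1 (0) for neomycin IP minus PO, 2 (0) for Neomycin-IP against Mix-IP, 4 (0) for Neomycin-IV against Mix-IV, 1 (0) across PBS routes, 5 (3) for the mix over 3 routes, 5 (1) for injected mix and for injected neomycin against mix, and 2 (1) for injected minus oral neomycin. Muscle and Hox covariates gave 2 (0) in Ampicillin-IP, 6 (1) in Neomycin-IP, 0 (2) in Vancomycin-IP, 0 (3) for vancomycin over 3 routes, 1 (0) for neomycin IP minus PO, IV minus PO and Neomycin-IP against Mix-IP, 2 (1) for injected mix, 4 (1) for injected neomycin against mix and 3 (1) for injected minus oral neomycin. The epithelium covariate gave 2 (0) in Ampicillin-IP, 1 (0) in Ampicillin-IV, 5 (1) in Neomycin-IP, 0 (2) in Vancomycin-IP, 3 (0) in Mix-IP, 1 (3) for vancomycin over 3 routes and 4 (1) for injected mix. Without the 12 appended libraries the counts were 2 (0) for neomycin IV minus PO, 1 (2) for ampicillin over 3 routes, and 2 (1) for injected neomycin against mix and injected minus oral neomycin. Vancomycin-IP, with 3 of its 4 libraries appended, kept too few for counts in that setting, alone or over 3 routes. The compared groups alone, with fewer libraries to estimate the spread, gave 1 (0) in Ampicillin-IP, 0 (1) in Neomycin-IP, 0 (4) in Neomycin-IV, 1 (2) for ampicillin over 3 routes, 0 (1) for injected mix and injected minus oral neomycin, and 2 (1) for injected neomycin against mix.

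With each library left out in turn, counts ranged from 0 to 1 in Ampicillin-PO, Ampicillin-IP, injected mix and injected minus oral neomycin, 1 to 2 in Neomycin-IP, 1 to 5 in Neomycin-IV, 0 to 2 in Vancomycin-IP, Mix-IP and neomycin IV minus PO, 1 to 3 for ampicillin and 1 to 4 for vancomycin over 3 routes, and 0 to 3 for injected neomycin against mix. Direction was tracked for neomycin and the mix against PBS of the same route, and there no called member changed direction under any alternative. Dhx58 stayed called in 8 of 9 other settings in Neomycin-IP and in Neomycin-IV.

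Replicate numbers were not used as pairs, since no comparison had a correlation over 0.1 in every pair. Pairs over 0.1 ran from 0 of 5 in Ampicillin-IV to 5 of 6 in Vancomycin-PO, which does not settle whether some libraries were paired. The replicate block gave 2 (1) for injected neomycin against injected mix and moved no other count by over 1.5 times.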
